A study of Mus musculus with 8 samples.

Results

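The nuclear receptor PPARα and 9 of its target genes were followed in mouse liver from arrays labelled WT and HNF6KO. The 10 genes were Ppara, Cyp4a10, Cyp4a14, Acot1, Acot2, Acot3, Fgf21, Pdk4, Vnn1 and Ehhadh, taken by symbol from 19540 genes measured on Affymetrix arrays. All 10 were found, and each was represented by 1 probe set. The study compared 4 arrays of livers labelled WT with 4 arrays of livers labelled HNF6KO, a label that names the homeodomain factor HNF6, the product of Onecut1. In both groups the mice were male, of strain C57B/6, aged 12 weeks, fed chow without further treatment, and sampled at ZT10, given as 5 pm. The sources used here do not say how the knockout was made, which cells it affects, or whether each array is a separate animal. The p-values below therefore measure only the spread between these arrays, which may be technical. The study's title names hepatic lipid metabolism, and the comparison addresses which lipid genes differ between HNF6KO and WT livers.

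PPARα is a receptor for fatty acids that binds DNA together with a retinoid X receptor. In liver it switches on the burning of fatty acids during fasting, in mitochondria, in peroxisomes and by microsomal ω-hydroxylation. Its best known targets in mouse liver include the Cyp4a hydroxylases, the acyl-CoA thioesterases of the Acot family and the fasting hormone FGF21.

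The deposited values, read as log2 expression, ran from 3.69 to 14.1. Array medians lay between 6.89 and 6.97. Onecut1 had a mean of 10.25 ± 0.30 on the WT arrays and fell 2.49-fold to 8.93 ± 0.31 on the HNF6KO arrays (SD, n = 4; limma, adjusted p = 0.0273), and its groups did not overlap. A clear Onecut1 signal remained on every HNF6KO array, at 8.67 to 9.32, above the array medians, and which part of the gene its probes cover is unknown here. The call was lost without WT array 1, 3 or 4 or HNF6KO array 3 or 4 (limma, adjusted p = 0.0633 to 0.0954). The log2 difference was -0.83 with arrays 1 and 2 alone (adjusted p = 0.171) and -1.80 with arrays 3 and 4 alone (adjusted p = 0.0014). This split, used again below, was taken from earlier results of these data and is not a labelled batch. Its p-values are therefore descriptions, not independent evidence. Among all genes 78 (0.399%) passed the adjusted threshold of 0.05, with 31 higher and 47 lower in HNF6KO. Hepatocyte markers were bright on every array, as the log2 of the summed linear values of 6 genes. Their summed level was 16.21 to 16.28 in WT and 16.25 to 16.35 in HNF6KO, so the ranges overlapped. Fewer cells of a type and less RNA per cell cannot be told apart in such tissue.

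Mean differences of the PPARα genes lay on both sides of 0, with no member past the adjusted threshold. On average Cyp4a14 was 2.60-fold and Acot1 2.07-fold lower in HNF6KO, while Ehhadh was 1.25-fold higher and Ppara itself differed by 1.05-fold. In limma 0 of 10 passed an adjusted p of 0.05 over all genes, against 0.399% of all genes. At an unadjusted p of 0.05, 3 of 10 were lower (Acot1, Cyp4a14 and Cyp4a10) and 0 were higher, against 5.21% and 4.30% of all genes. Differences of at least 0.5 on the log2 scale were seen for 2 of 10, Cyp4a14 and Acot1, and for 1.33% of all genes. The difference was below 0 for 7 of 10, with a median of -0.07, and for 57.4% of all genes, with a median of -0.01. The members also varied widely within each group. Their median SD was 0.30 in WT and 0.31 in HNF6KO on the log2 scale, where the median over all genes was 0.08 and 0.11. A difference of 0.5 can thus arise more easily among the members by spread alone. The members were also chosen with earlier results of these data known. The shares of all genes are therefore not a neutral yardstick for them.

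**Figure D1:**
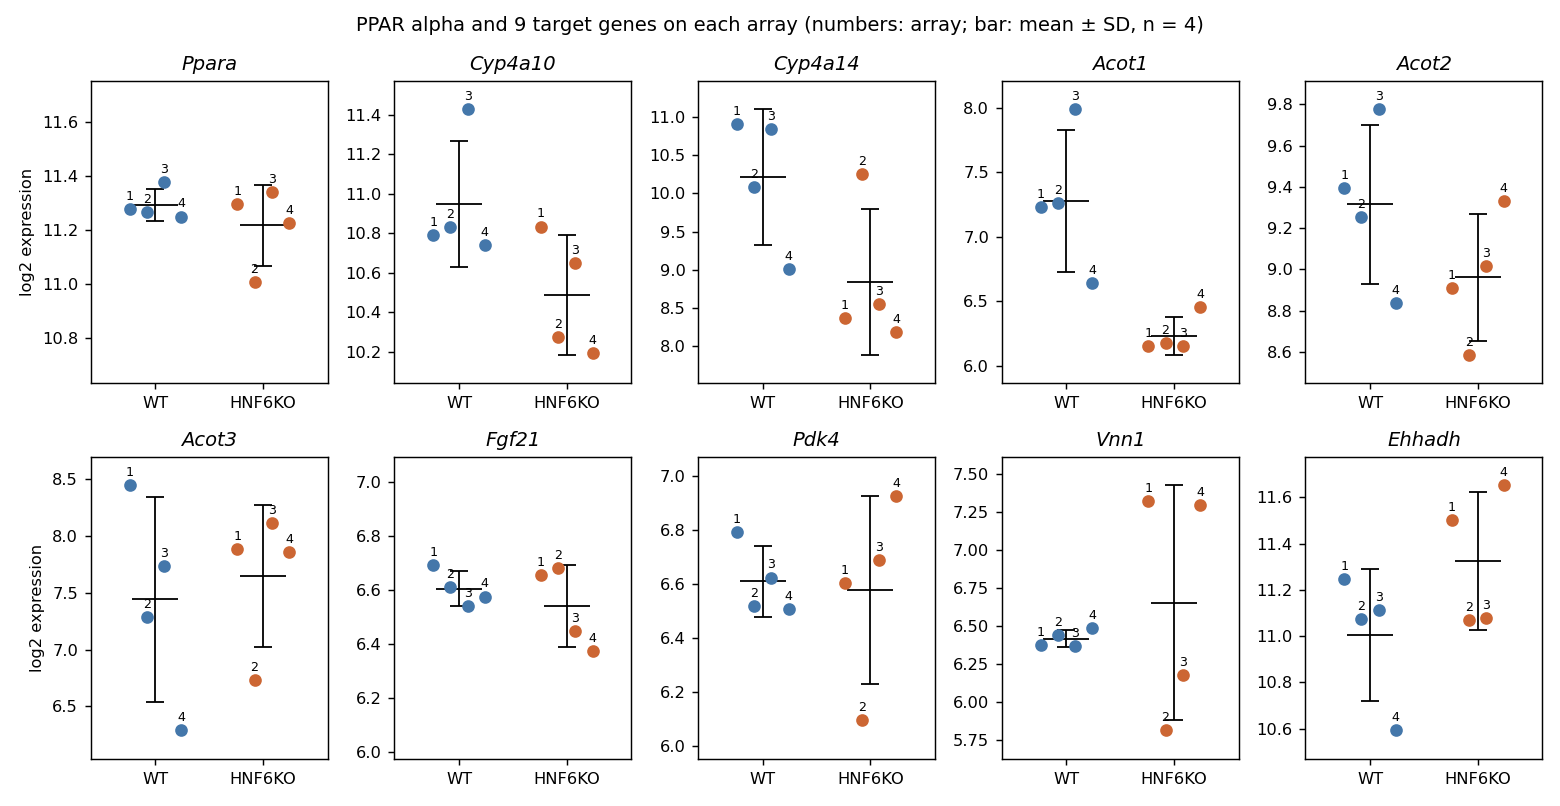
Log2 expression of the 10 genes on each array, 4 WT (blue) and 4 HNF6KO (orange), with array numbers beside the points and the mean ± SD as bars. The vertical scale differs between panels and spans at least 1 log2 unit. The HNF6KO points of Acot1 all sit below the WT points, while the groups overlap for the other 9 genes.

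The receptor gene Ppara was nearly level across the 8 arrays. In log2 units WT arrays 1 to 4 read 11.28, 11.26, 11.38 and 11.25, and HNF6KO arrays 1 to 4 read 11.30, 11.01, 11.34 and 11.22. HNF6KO array 2 was the lowest, and the groups overlapped. The log2 difference, HNF6KO minus WT, was -0.08 ± 0.08 (SE, n = 4 per group; limma, adjusted p = 0.839). Its 95% interval for this gene alone, from -0.25 to 0.10, does not reach a 1.5-fold change in either direction. Of the related receptors, Ppard, a sensor of fatty acids in many tissues, had a log2 difference of 0.06 ± 0.06 (adjusted p = 0.859). Pparg, the fat cell regulator, had one of -0.42 ± 0.12 (adjusted p = 0.291), with overlapping groups at 8.16 ± 0.23 in WT and 7.74 ± 0.17 in HNF6KO (SD, n = 4).

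Cyp4a14 had the lowest group difference of the 10 genes, and 1 array of each group lay towards the other group. The gene encodes a microsomal ω-hydroxylase of fatty acids and is among the most inducible PPARα targets. In log2 units the WT arrays read 10.91, 10.09, 10.85 and 9.01 in the order of their numbers, and the HNF6KO arrays 8.37, 10.25, 8.55 and 8.18. HNF6KO array 2 thus reached the WT range, and WT array 4 was the WT array nearest to the remaining 3 HNF6KO arrays. The mean was 10.21 ± 0.89 in WT and 8.84 ± 0.95 in HNF6KO (SD, n = 4), a log2 difference of -1.38 ± 0.53 (SE; limma, adjusted p = 0.444). Without HNF6KO array 2 the difference was -1.85 (adjusted p = 0.180). Without WT array 4 it was -1.78 (adjusted p = 0.278), and over all 20 alternative fits it stayed between -1.85 and -1.14.

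Its neighbour Cyp4a10, a hydroxylase of the same family, differed less. WT arrays 1 to 4 gave 10.79, 10.83, 11.43 and 10.74, and HNF6KO arrays 1 to 4 gave 10.83, 10.28, 10.65 and 10.20 on the log2 scale. WT array 3 stood apart from the other 3 WT arrays, and HNF6KO array 1 lay within the WT range. The log2 difference was -0.46 ± 0.18 (SE, n = 4 per group; adjusted p = 0.470), and -0.30 without WT array 3. Cyp4a31, the next gene along, was lower on every HNF6KO array. Its values were 9.39, 9.51, 10.16 and 9.64 in WT and 9.29, 8.94, 9.29 and 8.88 in HNF6KO, a log2 difference of -0.57 ± 0.17 (adjusted p = 0.291). Cyp4a12a and Cyp4a12b, male-predominant hydroxylases of the same cluster, had log2 differences of 0.04 ± 0.21 and -0.05 ± 0.16 (adjusted p = 0.981 and 0.969), and the sign of each turned when single arrays were left out. Cyp4a genes are closely similar, and a probe set of one can bind transcripts of another, so the share of each gene in these signals is uncertain.

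Among the thioesterases, Acot1 was lower on every HNF6KO array, while Acot3, from the same gene cluster, overlapped between the groups and varied widely in WT. These enzymes cleave acyl-CoA to free fatty acid and coenzyme A, Acot1 in the cytosol, Acot2 in mitochondria and Acot3 in peroxisomes. In the reference gene table the cluster runs in the order Acot2, Acot1, Acot4, Acot3, Acot5 and Acot6. Whether the differences of these neighbouring genes are unequal was not tested. The bases just before the starts of the first 4 genes are shown as a description only. They come from RefSeq (build GRCm38.p6), 250 bases each on the plus strand, 5′ to 3′, at chr12:83987611-83987860, chr12:84009252-84009501, chr12:84038129-84038378 and chr12:84051894-84052143, with the first of 2 entries used for Acot3. Capitals mark the stretch with the fewest mismatches, on either strand, to AGGTCA, any 1 base and AGGTCA again, the direct repeat that PPARα and its partner bind. Where several stretches tie, the one farthest from the start is marked.
Acot2: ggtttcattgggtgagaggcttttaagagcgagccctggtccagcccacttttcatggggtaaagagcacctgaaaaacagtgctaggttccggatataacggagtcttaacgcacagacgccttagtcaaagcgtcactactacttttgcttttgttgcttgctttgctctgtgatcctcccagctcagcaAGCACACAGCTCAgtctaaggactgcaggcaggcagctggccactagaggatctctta
Acot1: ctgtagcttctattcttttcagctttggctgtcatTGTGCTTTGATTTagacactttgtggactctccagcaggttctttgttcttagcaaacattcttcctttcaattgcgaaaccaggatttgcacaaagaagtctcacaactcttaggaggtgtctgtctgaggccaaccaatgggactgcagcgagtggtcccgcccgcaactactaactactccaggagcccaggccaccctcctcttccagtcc
Acot4: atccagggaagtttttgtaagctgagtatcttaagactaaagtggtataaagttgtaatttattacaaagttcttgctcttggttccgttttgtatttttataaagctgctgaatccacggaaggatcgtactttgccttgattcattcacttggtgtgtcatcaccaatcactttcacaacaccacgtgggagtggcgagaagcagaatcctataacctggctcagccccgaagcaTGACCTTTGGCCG
Acot3: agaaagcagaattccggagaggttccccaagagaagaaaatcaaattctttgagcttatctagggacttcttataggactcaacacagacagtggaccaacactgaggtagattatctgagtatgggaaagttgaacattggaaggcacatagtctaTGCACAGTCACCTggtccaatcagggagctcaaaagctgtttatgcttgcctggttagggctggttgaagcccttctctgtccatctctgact

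Over the 12 bases compared, that stretch has 3 mismatches in Acot2, 4 in Acot1, 2 in Acot4 and 4 in Acot3. Among 32851 such windows of the table, 3.24% hold a stretch with at most 2 mismatches, 21.3% one with at most 3 and 74.5% one with at most 4. The stretch of Acot4 is on the opposite strand and ends 1 base before the start. Promoters of 7 of the 10 genes matched by symbol, all but Cyp4a10, Cyp4a14 and Vnn1. Neither ATCAAT nor ATCGAT, core letters bound by HNF6 and its paralogs, is in any of those 7 windows on either strand. Other spellings of the core were not searched, so a lack of HNF6 sites is not shown. At least 1 of them is in 7.4% of all windows. These are matches of letters in a short window, not measured binding.

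Acot1 read 7.23, 7.26, 7.98 and 6.64 in WT and 6.15, 6.18, 6.15 and 6.45 in HNF6KO in log2 units, by array number. HNF6KO arrays 1 to 3 were nearly equal. The groups did not overlap, with every HNF6KO array below every WT array. This was seen for 1 of 10 members and 3.21% of all genes, and the opposite separation for 0 of 10 members and 2.45% of all genes (5.67% in either direction). The mean was 7.28 ± 0.55 in WT and 6.23 ± 0.15 in HNF6KO (SD, n = 4). The log2 difference was -1.05 ± 0.24 (SE; limma, unadjusted p = 0.00164, adjusted p = 0.150), with a 95% interval for this gene alone from -1.58 to -0.51. It passed in 1 of 20 alternative fits, arrays 1 and 2 alone (-1.08, adjusted p = 0.0216), a split taken from earlier results of these data. The HNF6KO values lay below the array medians, where a fold change can be understated.

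Acot2 also had a lower mean in HNF6KO, with overlapping groups. Its values were 9.39, 9.25, 9.78 and 8.84 in WT and 8.91, 8.59, 9.02 and 9.33 in HNF6KO, a log2 difference of -0.35 ± 0.21 (SE, n = 4 per group; adjusted p = 0.657). That difference was -0.20 without WT array 3 and -0.23 without HNF6KO array 2, and -0.58 with arrays 1 and 2 alone but -0.13 with arrays 3 and 4 alone. Acot3 gave 8.45, 7.29, 7.74 and 6.29 in WT, a 4.46-fold range, and 7.89, 6.73, 8.12 and 7.86 in HNF6KO. WT array 4 and HNF6KO array 2 were its lowest values. The log2 difference was 0.21 ± 0.45 (adjusted p = 0.947), and it turned to -0.18 without WT array 4. It was -0.56 with arrays 1 and 2 alone and 0.97 with arrays 3 and 4 alone. Acot4, another peroxisomal thioesterase, had a log2 difference of 0.25 ± 0.25 (adjusted p = 0.844). Acot5 and Acot6 were dim, at means of 4.82 and 5.93 in WT, with differences of 7.03e-04 ± 0.06 and 0.03 ± 0.05 (adjusted p = 0.999 and 0.904). The difference for Acot5 changed sign in 5 alternative fits. Members of this family share sequence, so signal may be split between them.

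Ehhadh, the bifunctional enzyme of the classical peroxisomal β-oxidation pathway, was higher in HNF6KO on average, with overlapping groups. It read 11.25, 11.07, 11.11 and 10.59 in WT and 11.50, 11.07, 11.08 and 11.65 in HNF6KO. WT array 4 was low, and HNF6KO arrays 1 and 4 were above every WT array. Between the means the log2 difference was 0.32 ± 0.17 (SE, n = 4 per group; limma, adjusted p = 0.622), and 0.18 without WT array 4 or 0.21 without HNF6KO array 4. Hsd17b4, the bifunctional enzyme that acts on branched chains and bile acid precursors, was nearly equal in both groups, at 12.17 ± 0.04 and 12.17 ± 0.15 (SD, n = 4; adjusted p = 0.999).

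Vnn1, the pantetheinase vanin-1, was tight in WT and split in HNF6KO. WT arrays 1 to 4 lay at 6.37, 6.44, 6.37 and 6.49, and HNF6KO arrays 1 to 4 at 7.33, 5.81, 6.18 and 7.30. HNF6KO arrays 1 and 4 were above all WT arrays, and HNF6KO arrays 2 and 3 were below them. All values but those of HNF6KO arrays 1 and 4 lay below the array medians, where a change is hard to see. The SD was 0.06 in WT and 0.77 in HNF6KO, and the log2 difference was 0.24 ± 0.32 (SE; adjusted p = 0.891). That difference was 0.012 without HNF6KO array 1, 0.022 without array 4 and 0.52 without array 2 of the same group. The adjacent vanin gene Vnn3 was higher on 3 HNF6KO arrays than on any WT array. Its values were 7.52, 6.93, 7.23 and 7.61 in WT and 9.09, 7.36, 8.61 and 8.84 in HNF6KO, with array 2 of HNF6KO inside the WT range. The log2 difference was 1.15 ± 0.34 (SE; limma, adjusted p = 0.288), a 2.23-fold higher mean. It passed in 3 of 20 alternative fits. These were without HNF6KO array 2 (1.53, adjusted p = 0.0189), with arrays 3 and 4 alone (1.31, adjusted p = 0.0429) and with the array number as a block (adjusted p = 0.0489). With arrays 1 and 2 alone Vnn3 did not pass (1.00, adjusted p = 0.651). The split into these pairs of arrays was taken from earlier results of these data.

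Pdk4, the kinase that shuts pyruvate out of the mitochondrial acetyl-CoA pool in fasting, did not separate the groups. It read 6.79, 6.52, 6.63 and 6.51 in WT and 6.60, 6.10, 6.69 and 6.93 in HNF6KO, so HNF6KO held both the lowest and the highest array. Every Pdk4 value but that of HNF6KO array 4 lay below the array medians, where a change is hard to see. Its mean log2 difference was -0.03 ± 0.16 (SE, n = 4 per group; limma, adjusted p = 0.979), and it turned to 0.13 without HNF6KO array 2 and to 0.03 without WT array 1. Its relatives Pdk1, Pdk2 and Pdk3 had log2 differences of 0.21 ± 0.23, -0.08 ± 0.09 and 0.01 ± 0.05 (adjusted p = 0.858, 0.870 and 0.971). The sign of Pdk1 and Pdk3 turned in at least 1 alternative fit each. Of the 13 measured relatives of the members, 0 passed, against 0.399% of all genes, and their median was 0.01. At an unadjusted p of 0.05, 1 was higher (Vnn3) and 2 lower (Cyp4a31 and Pparg), against 4.30% and 5.21% of all genes.

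Fgf21, the fasting hormone secreted by hepatocytes, stayed below the array medians throughout. It read 6.69, 6.61, 6.54 and 6.58 in WT and 6.66, 6.68, 6.45 and 6.37 in HNF6KO, a log2 difference of -0.06 ± 0.08 (SE, n = 4 per group; limma, adjusted p = 0.874). HNF6KO arrays 3 and 4 were the lowest and the other 2 lay within the WT range. Klb, the co-receptor β-Klotho through which FGF21 acts, had a log2 difference of -0.53 ± 0.18 (adjusted p = 0.351). It was -0.94 with arrays 1 and 2 alone and -0.12 with arrays 3 and 4 alone. Fgfr3 was higher on every HNF6KO array (0.19 ± 0.06, adjusted p = 0.291), at 8.77 ± 0.09 in WT and 8.97 ± 0.04 in HNF6KO (SD, n = 4). Fgfr1, Fgfr2 and Fgfr4 had log2 differences of -0.08, 0.22 and 0.06, and that of Fgfr1 turned to 0.02 without HNF6KO array 1. In limma 0 of these 5 receptor genes passed, against 0.399% of all genes. At an unadjusted p of 0.05, 1 was higher and 1 lower, against 4.30% and 5.21% of all genes.

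**Figure D2:**
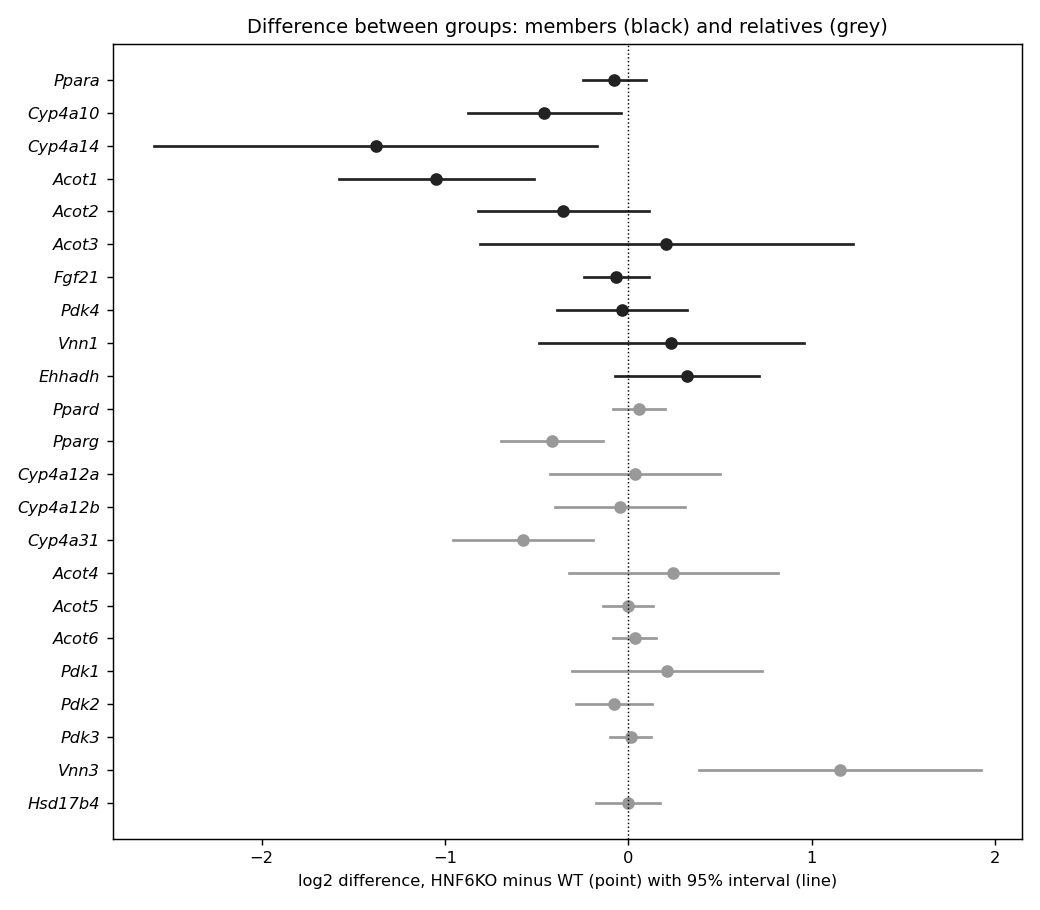
Log2 difference, HNF6KO minus WT (points, horizontal axis), with its 95% interval per gene (lines) for the 10 genes (black) and their measured relatives (grey). Cyp4a14 lies lowest at -1.38 and Vnn3 highest at 1.15, and the intervals of Acot3 and Cyp4a14 are wide.

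By Dixon's ratio, the gap of the extreme array to its nearest neighbour over the group's range, set against its 95% critical value for 4 arrays, 2 of 20 group checks stood out. These were Cyp4a10 on WT array 3 (ratio 0.870) and Acot1 on HNF6KO array 4 (0.922). Under each of 3 other normalizations only Cyp4a10 stayed above the critical value, and Acot1 had ratios of 0.718 to 0.804. The same check picked out 4.83% of all genes in WT and 4.70% in HNF6KO. Just under the critical value were Cyp4a14 (0.819) and Acot3 (0.811), both on HNF6KO array 2. WT array 4 was the lowest WT array for 8 of 10 members, where it was the lowest for 26.4% of all genes. HNF6KO array 2 was the lowest HNF6KO array for 6 of 10 members, against 24.9% of all genes, and the highest for Cyp4a14 and Fgf21. Members of the Cyp4a and Acot clusters can share signal, so these counts are not of independent genes.

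On HNF6KO array 2, markers of other liver cell types were at the low end of the group. The summed log2 level of 6 Kupffer cell markers was 10.5 on that array and 11.0 to 12.1 on the other 3 HNF6KO arrays. For 6 sinusoidal endothelial markers it was 11.0 against 11.5 to 12.0, and for 6 stellate cell markers 11.5 against 12.0 to 12.4. In WT the ranges were 10.3 to 11.8 for Kupffer, 11.0 to 11.8 for endothelial and 11.5 to 12.3 for stellate markers. WT array 1 held the low end of each of these ranges. That array was the lowest WT array for 0 of 10 members (26.1% of all genes) and the highest for 5 (24.7%). On WT array 4 the Kupffer level was the highest of WT. None of these 18 marker genes passed limma, and 0 had an unadjusted p under 0.05. Mean differences were above 0 for 6 of 6 Kupffer, 6 of 6 endothelial and 4 of 6 stellate markers, with 2 stellate markers below 0. Of all genes, 57.4% lay below 0. Adipocyte markers (5 genes) summed to 8.62 to 8.84 in WT and 8.58 to 8.78 in HNF6KO, with 0 past the adjusted threshold. Retn and Lep, named after their values were seen, were lower at an unadjusted p of 0.05, as were 5.21% of all genes. Cholangiocyte markers (5 genes) gave 8.61 to 8.68 and 8.55 to 8.67, and skeletal muscle markers (5 genes) 9.52 to 9.55 and 9.49 to 9.59, with 0 of 10 at an unadjusted p under 0.05. Hepatocyte markers had 0 of 6 past limma's threshold, with 5 above 0 and 1 below. Every HNF6KO array was above every WT array for 2 of these 6, and for 2.45% of all genes. Of them, 1 was higher at an unadjusted p of 0.05 (Cps1, also named after its value was seen), against 4.30% of all genes. The part of these levels in the values of the members was not tested.

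**Figure D3:**
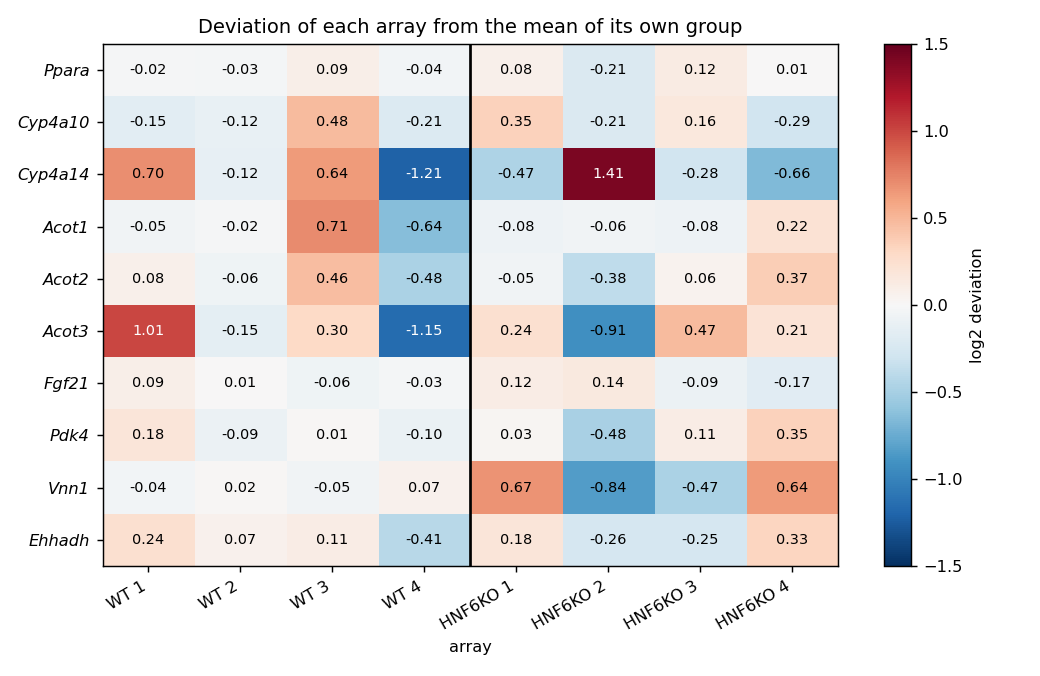
Log2 deviation of each array from the mean of its own group for the 10 genes (rows) on 4 WT and 4 HNF6KO arrays (columns), red above and blue below the group mean. WT array 4 is the lowest WT array in 8 rows, and HNF6KO array 2 is the lowest of its group in 6 and far above it for Cyp4a14.

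Array by array, the members' deviations from their group means were alike to unequal degrees, least for Cyp4a14 and Fgf21. As a description over 8 arrays that share their group means, the Pearson r of a gene's deviations with the mean deviation of the other 9 members was 0.83 for Acot2, 0.82 for Acot3 and 0.77 for Ehhadh. It was 0.66 for Acot1, 0.55 for Ppara, 0.52 for Pdk4, 0.47 for Cyp4a10 and 0.32 for Vnn1. For Cyp4a14 it was -0.03 and for Fgf21 -0.32. These r values were not set against those of all genes, so they do not set the members apart. The genes outside the set whose deviations were most like the mean of all 10 members, picked as the highest r over 8 arrays, were Tmem25 (0.98), Rnf122 (0.97), Osbpl5 (0.97), Chchd10 (0.97), G0s2 (0.96) and Trim36 (0.96). Of these only G0s2, an inhibitor of the triglyceride lipase ATGL, was on one of the lists of PPARα targets described next. Its log2 values were 9.25, 8.75, 9.23 and 8.33 in WT and 9.76, 8.91, 9.16 and 9.57 in HNF6KO, lowest on WT array 4 and HNF6KO array 2.

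Partners and cofactors of PPARα showed small differences. In limma 0 of 18 measured genes passed, against 0.399% of all genes, and the median log2 difference was -0.07. At an unadjusted p of 0.05, 2 were lower and 0 higher, against 5.21% and 4.30% of all genes. The coactivator gene Ppargc1b had a difference of -0.36 ± 0.12 (SE, n = 4 per group; adjusted p = 0.331), while its relative Ppargc1a had one of 0.44 ± 0.20 (adjusted p = 0.538). Crebbp, a histone acetyltransferase, was lower on every HNF6KO array by a small amount (-0.15 ± 0.05, adjusted p = 0.346). The corepressor gene Nrip1, the retinoid X receptor gene Rxrg and the liver fatty acid binding protein gene Fabp1 had log2 differences of 0.12, -0.12 and -0.16.

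Other peroxisomal targets mostly had slightly lower means in HNF6KO, with 1 large exception. Of 14 measured, 0 passed limma, 3 were lower and 1 higher at an unadjusted p of 0.05, and 11 lay below 0 (median -0.16). Of all genes, 0.399% passed, 57.4% lay below 0, and 5.21% were lower and 4.30% higher at that unadjusted p. Crot, which moves shortened acyl groups out of peroxisomes as carnitine esters, was lower on every HNF6KO array, at 12.33, 12.54, 12.38 and 12.33 in WT and 12.18, 11.81, 12.09 and 12.00 in HNF6KO. Its log2 difference was -0.37 ± 0.09 (SE; adjusted p = 0.157). The dienoyl-CoA isomerase Ech1 had a difference of -0.29 ± 0.08 (adjusted p = 0.250) and the enoyl-CoA isomerase Eci2 one of -0.22 ± 0.08 (adjusted p = 0.434). Abcd2, a peroxisomal importer of very long chain fatty acids, was the exception, with a log2 difference of 1.15 ± 0.39 (adjusted p = 0.358). It read 7.92, 7.09, 7.21 and 6.85 in WT and 7.80, 8.07, 9.62 and 8.16 in HNF6KO, highest on HNF6KO array 3, and without that array the difference was 0.74. It was 0.43 with arrays 1 and 2 alone and 1.86 with arrays 3 and 4 alone. Hsdl2 and the dienoyl-CoA reductase Decr2 had differences of -0.17 and -0.20.

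Mitochondrial targets of fatty acid oxidation differed little. Of 16 measured, 0 passed limma, against 0.399% of all genes, and the median log2 difference was -0.03. At an unadjusted p of 0.05, 2 were lower and 0 higher, against 5.21% and 4.30% of all genes. The whole list lay between -0.19 and 0.16. The dienoyl-CoA reductase Decr1 had a difference of -0.19 ± 0.08 (adjusted p = 0.482), and Cpt2, the inner membrane carnitine acyltransferase, one of -0.19 ± 0.08 (adjusted p = 0.515). Cpt1a, the gate of fatty acid entry into mitochondria, had a difference of -0.12 ± 0.11 (adjusted p = 0.835), which turned to 0.02 with array quality weights. Hadh, Ucp3 and Acads had differences of 0.16, -0.07 and -0.09, and that of Ucp3 turned to 0.03 with arrays 1 and 2 alone.

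Targets of lipid handling held the 1 gene of these lists that passed. Of 24 measured, Pdzk1 fell, 0 rose and 23 did not pass limma, and the list's median was -0.05. Of all genes, 0.241% fell and 0.159% rose at that adjusted threshold. At an unadjusted p of 0.05, 5 were lower and 2 higher, against 5.21% and 4.30% of all genes. Pdzk1, the scaffold that keeps the HDL receptor SR-BI at the hepatocyte surface, read 8.96, 8.84, 8.77 and 8.73 in WT and 8.55, 8.37, 8.37 and 8.39 in HNF6KO. Its groups did not overlap, and the mean fell 1.32-fold, by a log2 difference of -0.41 ± 0.07 (SE; limma, adjusted p = 0.0481). The call was lost when any WT array or HNF6KO array 2, 3 or 4 was left out, with log2 differences of -0.44 to -0.36 and adjusted p = 0.0673 to 0.180. Cyclic loess (adjusted p = 0.0841) and quantile normalization (0.105) also ended it, as did a variance trend (0.0731), every probe set tested on its own (0.0502) and either pair of arrays alone (0.108 and 0.240). It was kept without HNF6KO array 1 (-0.45, adjusted p = 0.0414).

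Gpd1, which makes glycerol 3-phosphate for triglyceride synthesis, had a larger difference with a wider spread. It read 11.50, 11.86, 11.82 and 11.55 in WT and 11.00, 10.33, 10.95 and 11.18 in HNF6KO, so that the groups did not overlap. The log2 difference was -0.81 ± 0.17 (SE, n = 4 per group; limma, adjusted p = 0.128). It passed in 1 of 20 alternative fits, array quality weights (-0.76, adjusted p = 0.0485). Retsat, a retinol saturase, and Fitm1, which acts in lipid droplet formation, had differences of -0.69 ± 0.25 and -0.85 ± 0.33 (adjusted p = 0.410 and 0.456). The other way went Cd36, the fatty acid translocase (0.99 ± 0.30, adjusted p = 0.300), and slightly the transporter Slc27a1 (0.14 ± 0.05, adjusted p = 0.429). Targets of PPARα thus lay on both sides of 0 within a single list.

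**Figure D4:**
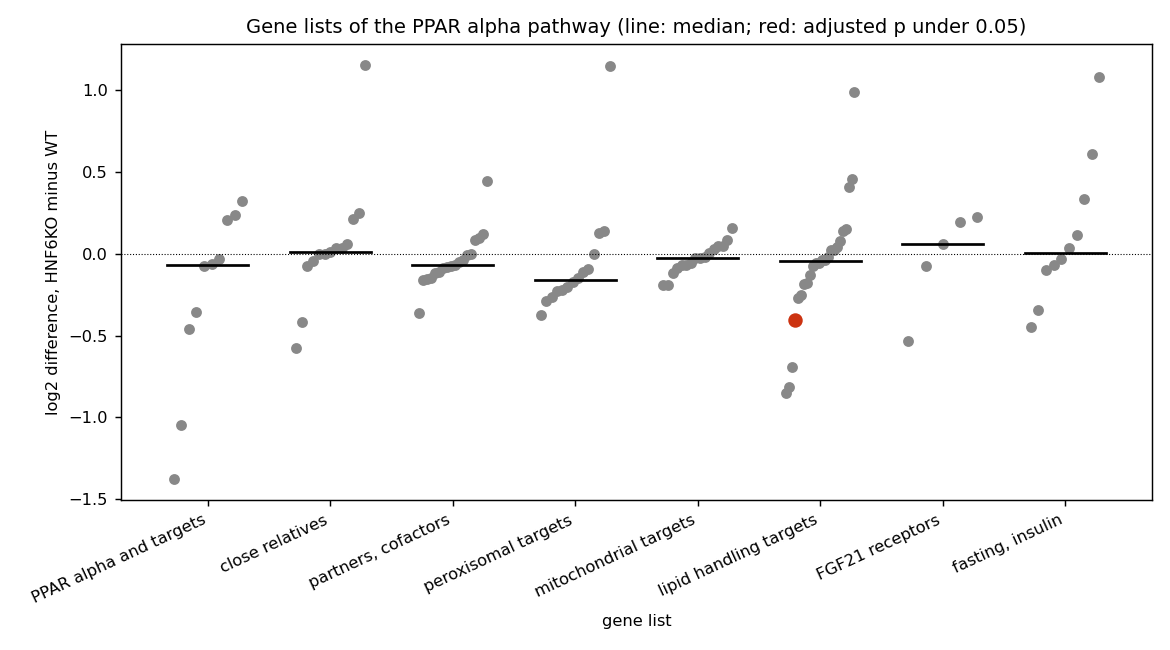
Log2 difference, HNF6KO minus WT (vertical axis), of every measured gene of 8 lists (horizontal axis), with the list's median as a line and genes past an adjusted p of 0.05 in red. Pdzk1 in the lipid handling list is the only red point, and the peroxisomal list has the lowest median, -0.16.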

How the data were processed

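Trizol-extracted liver RNA was hybridised to 8 Affymetrix whole-transcript arrays, per the labels' protocols. The table the authors deposited has 22725 probe sets, and its values are read as log2 expression from their range. The sources used here do not give the log base, background correction, normalization, centring or summarisation. The annotation table paired 21113 probe sets with 1 symbol, 43 with several and 1569 with none, and the brightest probe set by mean over 8 arrays stood for each of 19540 genes (883 had more than 1).

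HNF6KO was compared with WT with limma 3.58.1 in R 4.3.3 (lmFit, eBayes), and p-values were adjusted over 19540 genes (Benjamini-Hochberg, threshold 0.05). Intervals are 95% and per gene. The step was tested on simulated data. The 10 members and all gene lists were chosen with earlier results of these data known. Genes named are the members, their measured relatives, up to 6 per list with the smallest p and any that passed, Onecut1, and the 6 most alike in array pattern. Some listed genes were not analysed here. Labels give no hybridisation batch. The number of arrays limits the precision of every value.

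Arrays correlated at r = 0.987 to 0.997 across probe sets, and none was a duplicate. Alternatives were 3 normalizations, a filter at the 40th percentile, an intensity trend with robust variances, array weights, other probe set choices, the array number as a block, a split of arrays 1 and 2 from 3 and 4, and leaving out each array.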

Additional observations from a re-analysis of the deposited data

Results flagged for a closer look

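In groups of 4 arrays, 6 values among 65 named genes stood apart from the other 3 arrays by Dixon's ratio, in 130 checks of which chance gives about 1 in 20. Cyp4a10 read 11.43 on WT array 3, with the other WT arrays at 10.74 to 10.83. Acot1 read 6.45 on HNF6KO array 4, with the others at 6.15 to 6.18. The kinase gene Pdk2 read 10.74 on HNF6KO array 2, with the others at 10.97 to 10.99. The uncoupling protein gene Ucp3 read 5.42 on WT array 2, with the others at 5.60 to 5.62. Pdzk1 read 8.55 on HNF6KO array 1, with the others at 8.37 to 8.39. Rnf122 read 6.60 on HNF6KO array 2, with the others at 6.81 to 6.84. After quantile normalization, median centring or cyclic loess, Cyp4a10 remained above the critical value (ratios 0.841, 0.869 and 0.852) and Acot1 did not (0.718, 0.804 and 0.727).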

How the results depend on the processing

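Of the 10 members, 0 passed in any fit except with arrays 1 and 2 alone, where 1 did (Acot1). The count of 2 single-array outliers among members was 1 under each of the 3 normalizations. The count of 78 genes past the threshold became 202 with array quality weights, 245 with a term that separates arrays 1 and 2 from 3 and 4, 125 with a replicate block by array number and 22 with arrays 1 and 2 alone, and it ran from 16 to 79 when each array was left out. The split was taken from earlier results of these data. Of 65 named genes, 50 kept their sign in every alternative run. 

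The sign turned with arrays 1 and 2 alone for Acot3 (-0.56), Fgf21 (0.017), Cyp4a12a (-0.33), Acot4 (-0.17), Pdk1 (-0.039), Pdk3 (-0.026) and Ucp3 (0.029). With arrays 3 and 4 alone it turned for Pdk4 (0.24), Cyp4a12b (0.13), Acot5 (-0.064), Hsd17b4 (0.078), Igfbp1 (-0.14) and Tmem25 (0.014). Array quality weights turned Pdk4 (0.051), Cyp4a12b (0.055), Acot5 (-0.0048), Hsd17b4 (0.0097) and Cpt1a (0.019), and median centring turned Hsd17b4 (0.0060). With each array left out in turn, log2 differences ran from -0.18 to 0.54 for Acot3, -0.15 to 0.13 for Pdk4, -0.070 to 0.25 for Cyp4a12a, -0.14 to 0.13 for Cyp4a12b, -0.038 to 0.032 for Acot5, -0.012 to 0.030 for Pdk3, -0.039 to 0.074 for Hsd17b4 and -0.18 to 0.024 for Fgfr1. The cause was not tested.

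By the labels, arrays of the 2 groups share only a number. The deviations of same-numbered arrays from their group means correlated at 0.44, 0.17, 0.51 and 0.02 across genes, and not every array correlated best with its own number. Across numbers, WT arrays 1 and 2 correlated positively with HNF6KO arrays 1 and 2 (0.17 to 0.44) and negatively with HNF6KO arrays 3 and 4 (-0.50 to -0.21). Deviations within a group cancel out for every gene, so positive values with some arrays force negative values with others. The negative values are therefore not a separate observation. WT array 3 correlated with HNF6KO arrays 3 and 4 at 0.51 and 0.45, and WT array 4 at 0.32 and 0.02. With the array number as a replicate block, Vnn3 passed (1.15, adjusted p = 0.0489) and no member did. No scaling moved the median of all genes by over 0.1. The filter on dim genes gave no value for Acot5, Acot6, Pdk3, Rxrg, Ucp3 and Trim36. Fgf21 lay below the array median on all 8 arrays, where a change is hard to see.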

Other observations

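Fasting and insulin response genes outside the PPARα lists gave a mixed picture. Of 10 measured, 0 passed limma, against 0.399% of all genes, and the median log2 difference was 0.0019. At an unadjusted p of 0.05, 1 was higher and 0 lower, against 4.30% and 5.21% of all genes. Scd1, the stearoyl-CoA desaturase, was higher on every HNF6KO array, at 12.73, 11.87, 12.55 and 11.30 in WT and 13.15, 13.45, 12.82 and 13.36 in HNF6KO, a log2 difference of 1.08 ± 0.29 (SE, n = 4 per group; limma, adjusted p = 0.239). Fasn, the fatty acid synthase, had a difference of 0.61 ± 0.28 (adjusted p = 0.540) and was lowest on WT array 4, at 9.35. Igfbp1, a fasting-induced binding protein of insulin-like growth factors, read 9.14, 10.52, 10.20 and 10.35 in WT and 10.13, 11.17, 10.85 and 9.42 in HNF6KO, highest on HNF6KO array 2. G6pc, the last enzyme of glucose output, the insulin receptor substrate gene Irs2 and Pnpla3 had log2 differences of -0.34, -0.45 and -0.10, with adjusted p = 0.676 to 0.750.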
